A study of Mus musculus with 18 samples.

Results

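Proteins that bind fatty acids and their coenzyme A esters are described here in the ileum of mice that overexpress *Ppara* in the intestinal epithelium. The members are 7 genes, *Fabp1*, *Fabp2*, *Fabp4*, *Fabp5*, *Fabp7*, *Acbd5* and *Dbi*, taken by symbol from the 55487 genes of the count files. The ileal bile acid binding protein *Fabp6* is not among them and is used as a reference level and in a list of related genes. Each member has 1 row in the files and all 7 are annotated as protein-coding. Of these, 6 had more than 3 CPM (a CPM is a count scaled to the library's total) in no fewer than 4 libraries and entered the comparisons across genes, while *Fabp7* did not. On the GRCm38 build *Fabp1* (ENSMUSG00000054422) lies at chr6:71199827-71205023 on the plus strand and *Fabp2* (ENSMUSG00000023057) at chr3:122895072-122899506 on the plus strand. *Fabp5* (chr3:10012548-10016607, plus strand) and *Fabp4* (chr3:10204088-10208576, minus strand) are also on chromosome 3. *Dbi* lies at chr1:120113280-120121078 on the minus strand, *Acbd5* at chr2:23068167-23115558 and *Fabp7* at chr10:57784881-57788450, both on the plus strand.

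RNA was sequenced from whole-thickness ileum, the distal part of the small intestine, of 18 mice with 1 library per mouse. The IEC-*Ppara* mice, 6 heterozygous and 6 homozygous, carried 1 or both alleles of the CAG-*Ppara*,-*EGFP* transgene, placed at the *Col1a1* safe harbor, together with *Villin-CreERT2*, which drives a tamoxifen-dependent Cre in intestinal epithelial cells. The 6 controls were littermates without *Villin-CreERT2*, so Cre itself and *Ppara* overexpression cannot be told apart in any comparison with control. The labels do not say how many transgene alleles the controls carried. All mice were of the C57BL6/J background, were fed chow, received tamoxifen (100 mg/kg) on 3 consecutive days at 8 to 13 weeks of age, and were collected 2 weeks later. Controls comprised 3 females and 3 males, and both overexpressing genotypes comprised 2 females and 4 males.

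The total count of a library lay between 38528522 and 50376371. In controls *Ppara* lay between 25.8 and 47.4 CPM, in heterozygous libraries between 107 and 196 CPM, and in homozygous libraries between 184 and 279 CPM. The IEC-*Ppara* libraries were thus all above the controls, while the heterozygous and homozygous ranges overlapped. The files do not separate endogenous *Ppara* reads from reads of the transgene. Because the whole gut wall was taken, fewer cells of a type and less RNA per cell cannot be told apart. The summed level of 5 epithelial genes (*Epcam*, *Vil1*, *Cdh1*, *Krt8* and *Krt19*) had a median of 13170 CPM in controls, 12510 CPM in heterozygous and 12110 CPM in homozygous libraries. *Adipoq*, which encodes the fat cell hormone adiponectin, was above 1 CPM in 10 libraries (3 control, 2 heterozygous and 5 homozygous) and at or under 0.211 CPM in the other 8.

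Fatty acid binding proteins are small cytosolic carriers that keep long-chain fatty acids soluble and pass them between membranes, enzymes and nuclear receptors. Enterocytes hold both the liver type, encoded by *Fabp1*, and the intestinal type, encoded by *Fabp2*. *Fabp1* is a classical target of PPARα, a receptor that itself binds fatty acids. *Fabp4* is the adipocyte type and is also made by macrophages and capillary endothelium, *Fabp5* is the epidermal type and is found in many cells including macrophages, and *Fabp7* is the brain type, made by glia. *Dbi* encodes the acyl-CoA binding protein, which carries activated fatty acids, and *Acbd5* encodes an acyl-CoA binding protein anchored in the peroxisome membrane.

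PPARα with its partner RXR binds direct repeats of AGGTCA spaced by 1 base. The promoters of the members were searched on both strands for AGGTCA, N and AGGTCA in a row, where N is any base. RefSeq promoters of the GRCm38.p6 build, 250 bases before to 50 bases after each annotated start, were matched by symbol for 5 of the 7 members: *Fabp1*, *Fabp2*, *Fabp7*, *Acbd5* and *Dbi*. The sequence upstream of *Fabp1* is shown because this gene had the largest difference among the members, from its RefSeq window to the base before the gene start of the count files (chr6:71199629-71199826, plus strand), with the 13 bases that best fit the repeat in capitals.
Fabp1 upstream: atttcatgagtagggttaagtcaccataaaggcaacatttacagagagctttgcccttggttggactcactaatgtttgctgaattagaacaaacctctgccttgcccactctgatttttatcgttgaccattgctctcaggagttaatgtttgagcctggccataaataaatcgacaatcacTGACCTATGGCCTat
On the opposite strand the capitals read AGGCCATAGGTCA, at chr6:71199812-71199824, from 67 to 55 bases before the RefSeq start. They match 11 of the 12 fixed letters, and 0.554% of the 32851 mouse promoters in the table match as many. The *Fabp2* promoter held a weaker match of 9 letters, shown next in capitals with 8 bases on either side (chr3:122894927-122894955, plus strand).
Fabp2 window: acatagtgTGCACTTTGAACTtgtaaata
A match of 9 letters or more was found in 24.6% of all promoters, and the *Fabp7* promoter also reached 9. The best matches in the *Acbd5* and *Dbi* promoters had at most 8 letters, which 79.8% of all promoters have. AGGTCA alone, on either strand, was found at 2 places in the *Fabp1* promoter, 1 of them inside the 13 bases, at 1 place in the *Fabp7* promoter and in 16.3% of all promoters. These matches describe letters in a window and no binding was measured.

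Levels were compared between genes as FPKM, which is CPM divided by the gene length in kilobases. In controls the order was *Fabp2* with 1108 ± 150 FPKM (SD, n = 6), *Dbi* with 178 ± 15.4, *Fabp1* with 19.4 ± 5.97, *Fabp4* with 14.6 ± 16.1, *Acbd5* with 6.00 ± 0.242, *Fabp5* with 1.91 ± 0.967 and *Fabp7* with 0.236 ± 0.232 FPKM. The control range of *Fabp4* (3.14 to 44.8 FPKM) overlapped those of *Fabp1* (11.4 to 25.4 FPKM) and *Acbd5* (5.67 to 6.34 FPKM). The order of *Fabp4* against these members is thus not set by these libraries. This order also depends on the gene lengths used, 4489 bases for *Fabp4*, its whole listed interval, and 553 bases for *Fabp1*. In CPM the control mean of *Fabp4* (65.3) was above that of *Fabp1* (10.8). The length was 3567 bases for *Fabp5* and 965 bases for *Fabp2*, so the FPKM rank of *Fabp5* depends on it too. In homozygous libraries *Fabp1* stood at 285 ± 24.4 FPKM and *Dbi* at 228 ± 32.1 FPKM, with ranges of 248 to 311 and 184 to 282 FPKM that overlap. *Fabp2* remained the highest of the members in all 3 genotypes, at 1662 ± 247 FPKM in heterozygous and 2124 ± 312 FPKM in homozygous libraries.

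**Figure D1:**
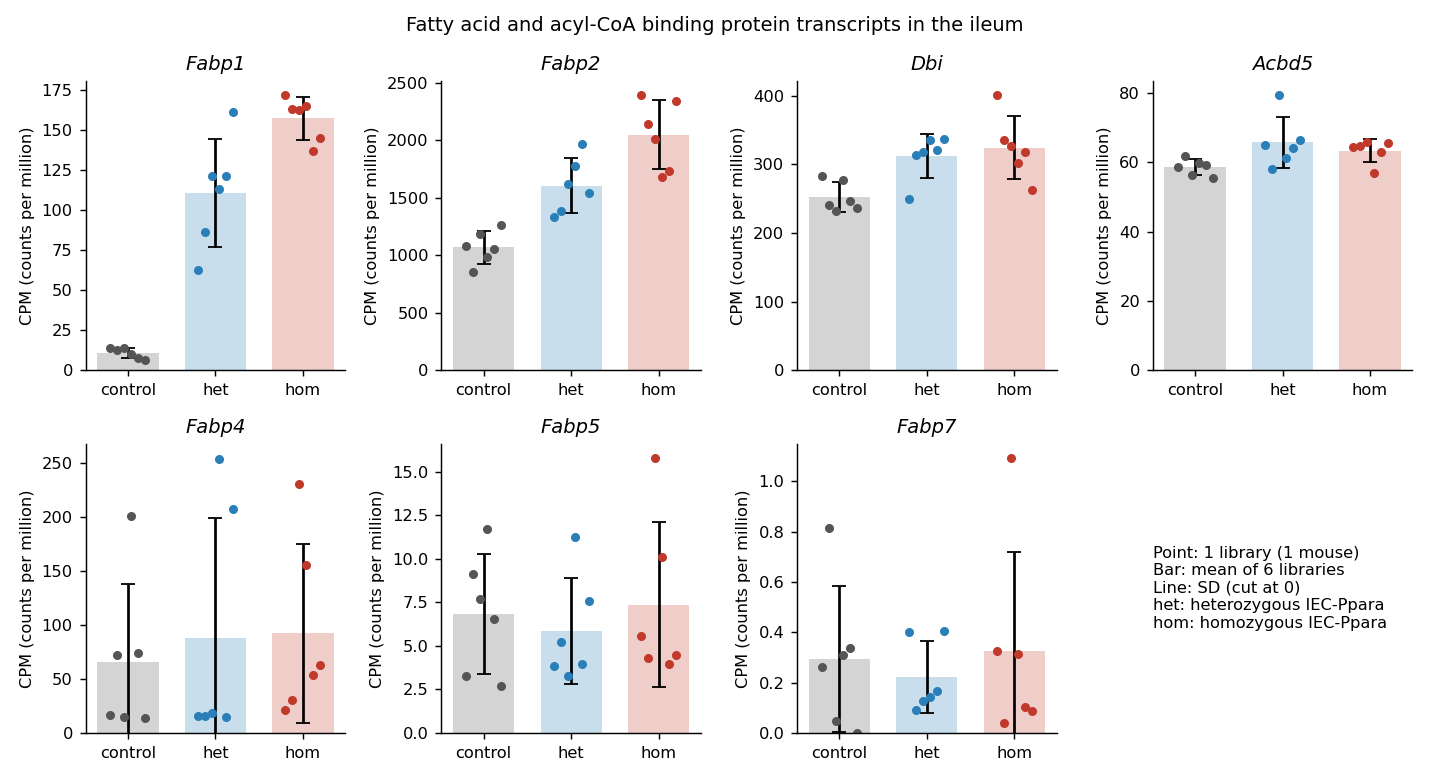
Each panel plots the CPM of 1 member on a linear axis, with 1 point per library, bars for the mean of the 6 libraries of a genotype and lines for the SD. *Fabp1* and *Fabp2* libraries of both IEC-*Ppara* genotypes lie above every control, *Dbi* libraries mostly do, and *Fabp4*, *Fabp5* and *Fabp7* vary widely within each genotype.

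*Fabp1* rose strongly in both IEC-*Ppara* genotypes. Its lowest, median and highest values were 6.30, 11.5 and 14.1 CPM in controls, 62.5, 117 and 161 CPM in heterozygous libraries, and 137, 163 and 172 CPM in homozygous libraries. All 12 IEC-*Ppara* libraries exceeded the highest control, and 4 of the 6 homozygous libraries were above every heterozygous one. The homozygous values lay close together (SD 13.5 CPM), while the heterozygous values spread over a range of 2.58-fold. The mean was 14.7-fold that of controls in homozygous and 10.3-fold in heterozygous mice. On the log2 scale *Fabp1* was higher by 3.88 (SE 0.23, adjusted p = 9.03e-09 by edgeR's quasi-likelihood test) in homozygous and by 3.40 (SE 0.22, adjusted p = 5.94e-08) in heterozygous mice. In both comparisons *Fabp1* had the second lowest p and the third largest log2 fold change among 12645 protein-coding genes.

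*Fabp2*, the most abundant member, rose in homozygous mice. Its lowest, median and highest values were 851, 1067 and 1261 CPM in controls, 1335, 1580 and 1963 CPM in heterozygous libraries, and 1681, 2075 and 2395 CPM in homozygous libraries. Neither IEC-*Ppara* genotype overlapped with the controls, while the heterozygous and homozygous ranges overlapped. The log2 fold change was 0.94 (SE 0.14, adjusted p = 0.00116 by edgeR) in homozygous mice. In heterozygous mice it was 0.61 (SE 0.14), with an unadjusted p of 0.000293 and an adjusted p of 0.0824 by edgeR, so *Fabp2* did not pass the test there. This call turned with the method, since the adjusted p was 0.00178 with DESeq2, 0.0330 with limma (trend) on log2 CPM and 0.0308 without TMM scaling. It also turned with single libraries, to 0.0377 without control replicate 6 and 0.0497 without heterozygous replicate 1 by edgeR.

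Of the 6 members tested, 2 were called higher in homozygous mice (*Fabp1* and *Fabp2*). Among all genes tested, edgeR called 0.411% there, 0.372% higher and 0.0395% lower. By number these were 47 higher and 5 lower, against 100 higher and 36 lower with DESeq2 and 44 higher and 12 lower without homozygous replicate 1 by edgeR. In heterozygous mice 1 member was called higher (*Fabp1*), against 0.293% of all genes, and no member was called lower in either genotype. Among all genes edgeR called 37 higher and 0 lower in heterozygous mice, against 71 higher and 11 lower with DESeq2. In homozygous mice 2 members had every library above every control, against 0.593% of all genes, and 0.854% did not overlap in either direction. In heterozygous mice the same 2 members did so, against 0.293% of all genes, and 0.467% did not overlap in either direction. *Fabp1*, *Fabp2* and *Dbi* belong to the genes the study itself picked from these libraries, so their direction here is not independent evidence. The 2 comparisons also share the control libraries.

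Between the IEC-*Ppara* genotypes no member was called by edgeR or by DESeq2, and 0.00791% of genes were called by edgeR. At an unadjusted p under 0.05, 2 members were higher in homozygous mice by edgeR, where 962 of 12645 genes had such a p in either direction. The log2 difference was 0.48 (SE 0.20) for *Fabp1* and 0.32 (SE 0.14) for *Fabp2*, with an adjusted p of 0.642 by edgeR for each. The other 4 members tested had log2 differences between -0.08 and 0.30.

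The Fabp1:Fabp2 ratio, from counts per kilobase in the same library, was higher in both IEC-*Ppara* genotypes. The lowest, median and highest number of *Fabp1* transcripts per 100 of *Fabp2* was 0.872, 1.94 and 2.64 in controls, 8.18, 11.0 and 18.2 in heterozygous libraries, and 10.8, 13.6 and 17.2 in homozygous libraries. The IEC-*Ppara* libraries did not overlap with the controls, and the lowest heterozygous library was more than 3 times the highest control. The ratio was 7.98-fold that of controls in homozygous and 6.91-fold in heterozygous mice, by log2 means. Both differences had a two-sided exact permutation p of 0.00216, the smallest that 6 against 6 libraries allow, and an adjusted p of 0.00758 over the 21 ratio tests made. The heterozygous and homozygous ranges overlapped, with a log2 difference of 0.21 (exact permutation p = 0.292, adjusted p = 0.438). That difference was 0.34 with an exact permutation p of 0.0303 without heterozygous replicate 6, the library with the highest ratio.

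**Figure D2:**
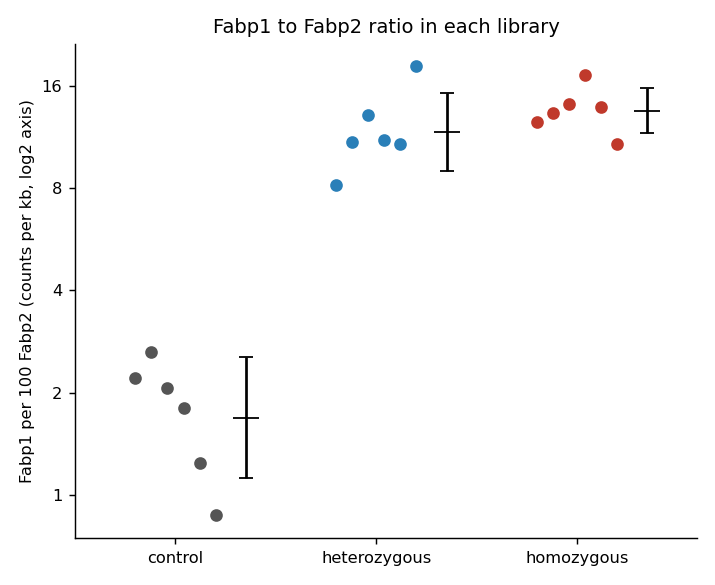
The number of *Fabp1* transcripts per 100 *Fabp2* transcripts (counts per kilobase) is plotted on a log2 axis for each library, with a horizontal mark for the mean and a line for the SD of the log2 values. The controls lie between 0.872 and 2.64, and all IEC-*Ppara* libraries between 8.18 and 18.2.

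The share of each carrier was also taken in the summed level of *Fabp1*, *Fabp2* and *Fabp6*, the ileal carrier of bile acids. *Fabp1* made up 0.196% ± 0.0597 (SD, n = 6) of the summed FPKM of *Fabp1*, *Fabp2* and *Fabp6* in controls, 1.98% ± 0.574 in heterozygous and 3.49% ± 0.570 in homozygous libraries. *Fabp2* made up 11.3% ± 2.55, 16.6% ± 3.86 and 26.0% ± 5.61. *Fabp6* thus remained the largest of the 3, at 88.5% ± 2.55 in controls and 70.5% ± 5.99 in homozygous libraries. The log2 fold change of *Fabp6* itself was -0.56 (SE 0.19, adjusted p = 0.397 by edgeR) in homozygous mice, so it did not pass the test. The summed level of *Fabp1* and *Fabp2* was 1127 ± 148 FPKM in controls, 1863 ± 281 FPKM in heterozygous and 2409 ± 320 FPKM in homozygous libraries.

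*Fabp1* was set against *Ppara* within each genotype. In heterozygous libraries *Fabp1* was highest in the library with the most *Ppara* (161 CPM of *Fabp1* at 196 CPM of *Ppara*) and lowest in the library with the least (62.5 CPM at 107 CPM). Pearson's r of log2 CPM was 0.81 (exact permutation p = 0.05) and Spearman's rho was 0.89 (exact permutation p = 0.0333) over these 6 libraries. In homozygous libraries the sign was opposite, with r = -0.79 (exact permutation p = 0.0625) and rho = -0.49 (p = 0.356), and in controls r was -0.038 (p = 0.947) and rho was -0.31 (p = 0.564). Without the 2 libraries farthest from the median *Ppara*, r was 0.51 in heterozygous and -0.47 in homozygous libraries. None of the 18 relations between a member and *Ppara* within a genotype passed adjustment (lowest adjusted p = 0.562), so the relation is not established in either genotype.

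**Figure D3:**
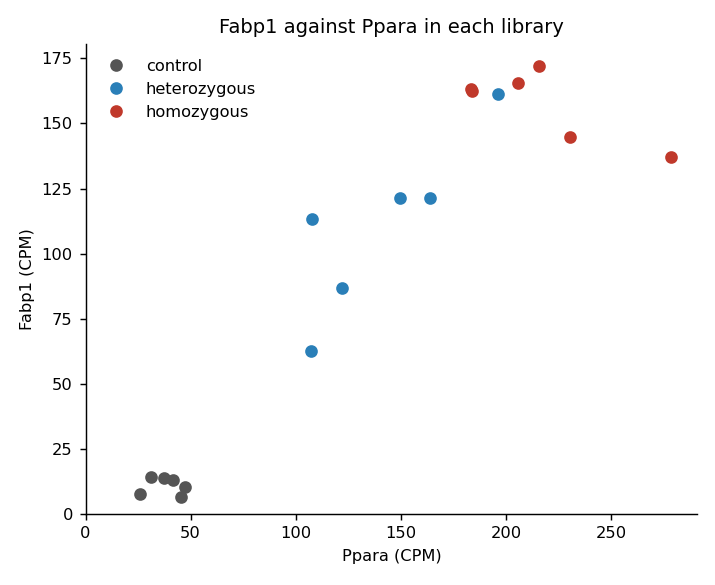
*Fabp1* CPM is plotted against *Ppara* CPM, both on linear axes, with 1 point per library coloured by genotype. Controls lie in the lower left corner, below 47.4 CPM of *Ppara* and 14.1 CPM of *Fabp1*, and the homozygous library with the most *Ppara* (279 CPM) has the lowest *Fabp1* of its genotype (137 CPM).

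*Dbi* was moderately higher in both IEC-*Ppara* genotypes without passing the test. Its lowest, median and highest values were 232, 244 and 283 CPM in controls, 249, 319 and 337 CPM in heterozygous libraries, and 262, 322 and 401 CPM in homozygous libraries. In each IEC-*Ppara* genotype 5 of 6 libraries were above every control, and 1 library (heterozygous replicate 1 and homozygous replicate 6) lay within the control range. The log2 fold change was 0.36 (SE 0.09, unadjusted p = 0.000886, adjusted p = 0.126 by edgeR) in homozygous and 0.34 (SE 0.09, unadjusted p = 0.00181, adjusted p = 0.263) in heterozygous mice. DESeq2 did call it, with adjusted p = 0.0128 and 0.0490. Between the IEC-*Ppara* genotypes the log2 difference was 0.03 (SE 0.09, adjusted p = 0.953 by edgeR).

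*Acbd5* did not pass the test in any comparison. Its values ran from 55.5 to 62.0 CPM in controls, from 58.2 to 79.5 CPM in heterozygous and from 57.0 to 66.0 CPM in homozygous libraries, and these ranges overlap. The log2 fold change was 0.20 (SE 0.07, unadjusted p = 0.00887, adjusted p = 0.635 by edgeR) in heterozygous and 0.12 (SE 0.07, adjusted p = 0.687) in homozygous mice. It was not called by DESeq2 in either comparison.

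*Fabp4* differed far more between libraries of 1 genotype than between genotypes. Controls held 16.2, 72.3, 14.5, 201, 74.1 and 14.1 CPM in replicates 1 to 6, heterozygous libraries 15.7, 15.7, 18.1, 254, 14.7 and 207 CPM, and homozygous libraries 21.3, 30.6, 230, 155, 53.3 and 63.3 CPM. High and low libraries occurred in every genotype and the ranges overlap. The log2 fold change was 0.52 (SE 0.86, adjusted p = 0.929 by edgeR) in homozygous and 0.48 (SE 0.86, adjusted p = 1.00) in heterozygous mice. Single libraries moved these values, which were 1.27 and 1.22 without control replicate 4, 0.035 in homozygous mice without homozygous replicate 3, and -0.20 in heterozygous mice without heterozygous replicate 4. In the 10 libraries with *Adipoq* above 1 CPM, *Fabp4* was 30.6 to 254 CPM, and in the 8 others it was 14.1 to 21.3 CPM, without overlap. Within the 10 libraries *Fabp4* followed the mean log2 CPM of 9 adipocyte markers (r = 0.99, permutation p = 7e-05; rho = 0.95, permutation p = 0.00012; adjusted p of r = 0.00252 over 36 relations), and r was 0.99 again without the 2 farthest libraries. Within the 8 libraries r was 0.12 (exact permutation p = 0.780) and rho was 0.10 (exact permutation p = 0.840). Other marker lists moved with *Fabp4* as well, with r = 0.85 for macrophage, 0.75 for enteric glia, 0.60 for smooth muscle and 0.53 for endothelial markers over all 18 libraries, beside 0.96 for adipocyte markers. Within the 10 libraries r was 0.77 for macrophage markers (permutation p = 0.0120, adjusted p = 0.0866), and within the 8 it was 0.69 for endothelial markers (exact permutation p = 0.0485, adjusted p = 0.159).

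With the adipocyte score as a covariate, chosen after seeing the data, the standard error of *Fabp4* fell from 0.86 to 0.24 and its log2 fold change was -0.092 (adjusted p = 0.983 by edgeR) in homozygous and 0.30 (SE 0.23, adjusted p = 1.00) in heterozygous mice. The summed level of the 9 adipocyte markers ran from 82.2 to 847 CPM in controls, from 104 to 805 CPM in heterozygous and from 142 to 765 CPM in homozygous libraries. All 9 had a log2 fold change above 0 in both IEC-*Ppara* genotypes, with a median of 0.35 in homozygous and 0.25 in heterozygous mice. None of the 9 was called by edgeR or DESeq2, and 1 had an unadjusted p under 0.05 by edgeR in each comparison. The score may thus overlap with genotype, which was not tested. *Adipoq* itself was at 0 in 6 libraries, 3 of them controls and 3 heterozygous. With this covariate *Fabp1* was higher by 3.87 (SE 0.23, adjusted p = 2.02e-08 by edgeR) and *Fabp2* by 1.00 (SE 0.13, adjusted p = 0.0003) on the log2 scale in homozygous mice, and *Fabp2* passed in heterozygous mice (0.61, SE 0.13, adjusted p = 0.0379). In only the 8 libraries with *Adipoq* under 1 CPM, where 1 homozygous library is left and is assumed to vary like the others, *Fabp1* was still called (3.88, adjusted p = 0.0347 in homozygous; 3.12, adjusted p = 0.0436 in heterozygous) and *Fabp2* was not (0.97, adjusted p = 0.630).

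*Fabp5* was low and also varied within genotypes. Its lowest, median and highest values were 2.67, 7.11 and 11.7 CPM in controls, 3.27, 4.60 and 11.2 CPM in heterozygous libraries, and 3.93, 5.02 and 15.8 CPM in homozygous libraries. The genotypes overlap, and the log2 fold change was 0.12 (SE 0.40, adjusted p = 0.971 by edgeR) in homozygous and -0.18 (SE 0.40, adjusted p = 1.00) in heterozygous mice. Its sign in homozygous mice depends on single libraries, at -0.24 without homozygous replicate 3, -0.04 without control replicate 6 and -0.02 without control replicate 1. In heterozygous mice it was 0.02 without control replicate 4. Over all 18 libraries *Fabp5* followed the mean of 10 macrophage markers (r = 0.90, permutation p = 2e-05; rho = 0.86, permutation p = 1e-05; adjusted p of r = 0.00012 over 18 relations), and r was 0.87 without the 2 farthest libraries. The relation was present within each genotype (r = 0.85, 0.97 and 0.94 in control, heterozygous and homozygous libraries). It held in the 10 libraries with *Adipoq* above 1 CPM (r = 0.92, permutation p = 0.00038; rho = 0.92, permutation p = 0.00048; adjusted p of r = 0.00684) and was weaker in the 8 others (r = 0.63, exact permutation p = 0.0925). Other marker lists moved with *Fabp5* too, with r = 0.76 for adipocyte, 0.75 for enteric glia and 0.64 for smooth muscle markers over all 18 libraries. In the 8 libraries with little *Adipoq*, B cell markers had the highest r of the 6 lists (r = 0.88, exact permutation p = 0.00625, adjusted p = 0.0563). The summed macrophage markers ran from 561 to 1269 CPM in controls (median 859), from 580 to 1099 CPM in heterozygous (median 714) and from 599 to 1635 CPM in homozygous libraries (median 697). Their median log2 fold change was 0.12 in homozygous and -0.15 in heterozygous mice, opposite in sign to the difference of the medians in homozygous mice, and none of the 10 was called by edgeR or DESeq2 or had an unadjusted p under 0.05 by edgeR.

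**Figure D4:**
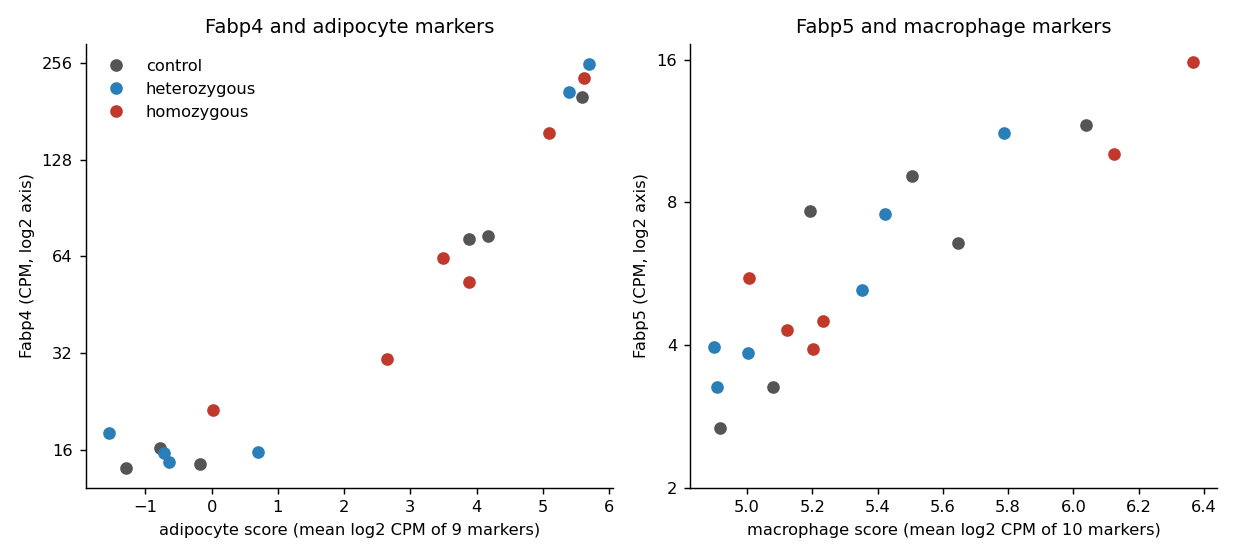
The left plot sets *Fabp4* CPM against the mean log2 CPM of 9 adipocyte markers, and the right plot sets *Fabp5* CPM against the mean log2 CPM of 10 macrophage markers, with log2 vertical axes and 1 point per library. *Fabp4* stays at 14.1 to 21.3 CPM in the 8 libraries with the lowest *Adipoq* and climbs to 254 CPM in the others, in all 3 genotypes.

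*Fabp7* was barely detected. Its counts ran from 0 to 41 in controls, from 4 to 19 in heterozygous and from 2 to 48 in homozygous libraries, and the highest value was 1.09 CPM in homozygous replicate 3. In control replicate 6 it had 0 counts, which allows up to 0.0756 CPM (3 counts, counting error only). It did not pass the filter, and in a fit of 19314 genes without it the log2 fold change was 0.12 (SE 0.76, adjusted p = 0.996 by edgeR) in homozygous and -0.36 (SE 0.77, adjusted p = 1.00) in heterozygous mice. *Fabp7* and the mean of 10 enteric glia markers had r = 0.67 (permutation p = 0.00254, adjusted p = 0.00544 over 18 relations) and rho = 0.56 (permutation p = 0.0182) over 18 libraries, and r fell to 0.55 without the 2 farthest libraries. The glia markers were low as well, with a summed level of 33.2 to 74.6 CPM, and *Fabp7* had r = 0.68 with the endothelial and r = 0.64 with the smooth muscle markers, so it did not single out glia. What part the cell type markers have in the levels of *Fabp5* and *Fabp7* was not tested.

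To set the members against the epithelium alone, each was divided by the mean of the 5 epithelial genes on the log2 scale. *Fabp1* was then 15.8-fold and *Fabp2* 1.99-fold the control level in homozygous mice, and 10.1-fold and 1.47-fold in heterozygous mice, with every library above every control (exact permutation p = 0.00216 and adjusted p = 0.00758 for each of the 4). On this scale the homozygous level was above the heterozygous one by 1.56-fold for *Fabp1* (exact permutation p = 0.00866, adjusted p = 0.0227) and 1.35-fold for *Fabp2* (exact permutation p = 0.00433, adjusted p = 0.0130). In males alone, 4 against 4 mice, both had an exact permutation p of 0.0571. Between homozygous and heterozygous mice the 5 epithelial genes had a median log2 difference of -0.11 by edgeR, with 0 of them above 0. A lower reference thus enters both folds, and without the reference neither gene was called (adjusted p = 0.642 by edgeR for each). *Dbi* was 1.33-fold in homozygous (exact permutation p = 0.0173, adjusted p = 0.0404) and 1.21-fold in heterozygous mice (exact permutation p = 0.0346, adjusted p = 0.0727). Against the mean of 8 enterocyte markers in place of the epithelial genes, the log2 differences of *Dbi* were 0.35 and 0.18 and neither had an exact permutation p under 0.05. *Acbd5*, *Fabp4* and *Fabp5* did not pass in any comparison (lowest exact permutation p = 0.104), although *Acbd5* reached p = 0.0325 in homozygous mice without control replicate 2. The 5 epithelial genes had a median log2 fold change of -0.06 in homozygous and 0.03 in heterozygous mice. None of them was called by edgeR or DESeq2, and none had an unadjusted p under 0.05.

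The differences between homozygous and control mice were also taken in each sex. The log2 fold change of *Fabp1* in homozygous mice was 3.81 in males and 3.93 in females, and that of *Fabp2* was 1.03 and 0.82. The male minus female difference was -0.12 (SE 0.35) for *Fabp1* and 0.21 (SE 0.27) for *Fabp2*, with an adjusted p of 1.00 by edgeR for each. For *Fabp4* it was 1.93 (SE 1.69), the least precise of the 6 members. No gene was called in the test of this difference by edgeR, where 258 of 12645 genes had an unadjusted p under 0.05, nor by DESeq2, where 307 did. Only 2 homozygous and 3 control females enter this test, and the SE gives the precision it has.

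The genes of related pathways were taken from fixed lists. Of 11 other intracellular lipid-binding proteins, 10 were found and 4 were tested, among them *Fabp6* and *Rbp2*. None was called in either comparison with control by edgeR or DESeq2, with 2 at an unadjusted p under 0.05 in homozygous and 1 in heterozygous mice by edgeR. Their median log2 fold change was -0.14 in homozygous and -0.05 in heterozygous mice, beside -0.0048 and -0.0058 over all genes tested. *Rbp2*, the retinol carrier of enterocytes, had log2 fold changes of 0.06 and 0.34 that did not pass. *Fabp9* was listed at 0 in every library, and *Fabp3*, *Fabp12*, *Pmp2*, *Crabp1* and *Crabp2* were too low to test.

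Of 6 other proteins with an acyl-CoA binding domain, 4 were tested and none was called in the comparisons with control by edgeR or DESeq2. In each comparison 1 had an unadjusted p under 0.05 by edgeR. This was *Eci2*, an enoyl-CoA isomerase, with a log2 fold change of 0.31 (SE 0.11, adjusted p = 0.409) in homozygous and 0.32 (SE 0.11, adjusted p = 0.588) in heterozygous mice. *Acbd3*, *Acbd4* and *Acbd6* had log2 fold changes between -0.01 and 0.14.

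Of 13 genes of fatty acid uptake and activation, 10 were tested and 1 rose in each comparison. *Acsl3*, an acyl-CoA synthetase, rose by 0.82 (SE 0.18, adjusted p = 0.0460 by edgeR) in homozygous mice and had 0.81 (SE 0.18, adjusted p = 0.0672) in heterozygous mice. *Slc27a2*, a fatty acid transporter and very-long-chain synthetase, rose by 0.64 (SE 0.13, adjusted p = 0.0400 by edgeR) in heterozygous mice and had 0.50 (SE 0.13, adjusted p = 0.144) in homozygous mice. The list's median log2 fold change was 0.28 in homozygous and 0.22 in heterozygous mice. *Slc27a4*, a fatty acid transport protein of enterocytes, had 0.29 and 0.22 and did not pass.

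Of 14 genes of triglyceride resynthesis and chylomicron assembly, all tested, 1 rose in homozygous mice. *Plin2*, which coats lipid droplets, rose by 0.65 (SE 0.12, adjusted p = 0.0116 by edgeR) and had 0.54 (SE 0.12, adjusted p = 0.0804) in heterozygous mice. No gene of this list was called in heterozygous mice by edgeR, where 5 had an unadjusted p under 0.05, and DESeq2 called 1. *Apoa1*, *Apob* and *Mttp*, which build chylomicrons, had log2 fold changes of 0.11 to 0.13 in homozygous mice that did not pass. The median was 0.11 in homozygous and 0.24 in heterozygous mice.

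Among these pathway lists fatty acid oxidation had the most calls. Of 18 genes, all tested, 5 rose in homozygous mice and the same 5 rose in heterozygous mice, and all 18 had a log2 fold change above 0 in both. *Acaa1b*, a peroxisomal thiolase, rose by 2.35 (SE 0.34, adjusted p = 0.00104 by edgeR) in homozygous and by 2.08 (SE 0.34, adjusted p = 0.00509) in heterozygous mice. The carnitine carrier *Slc25a20* rose by 0.78 and 0.63, the peroxisomal enzyme *Hsd17b4* by 0.65 and 0.59, and the very-long-chain dehydrogenase *Acadvl* by 0.58 and 0.53. The median log2 fold change of the list was 0.38 in both genotypes, which *Dbi* lay close to and *Fabp1* exceeded.

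**Figure D5:**
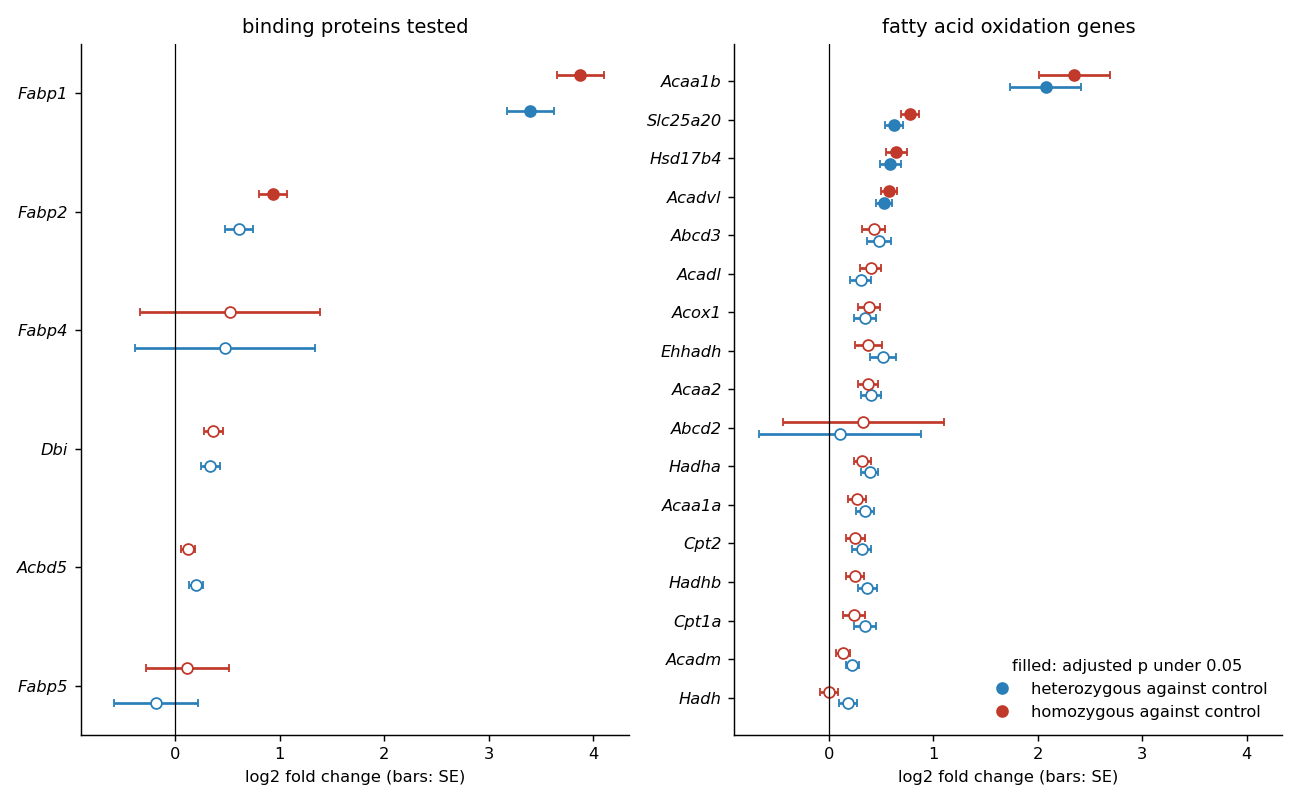
Log2 fold changes against control are plotted for the 6 members tested (left) and 17 of the fatty acid oxidation genes (right), in blue for heterozygous and red for homozygous mice, with bars for the SE and filled points for an adjusted p under 0.05. *Fabp1* (3.88 and 3.40) and *Acaa1b* (2.35 and 2.08) lie farthest from 0 among the genes plotted, and the SE of *Fabp4* (0.86) is the widest among the members.

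The genes whose log2 CPM was most like that of each member were sought among 12644 other genes over all 18 libraries. For *Fabp1* they included *Cyp4a10* (r = 0.98), *Cyp2c66*, *Esr1* and *Aqp3* (r = 0.97 for each), and *Fabp2* was at rank 29 (r = 0.86). For *Fabp2* they were *Aqp3*, *Abhd6*, *Gal3st2b*, *Cst6* and *1810065E05Rik* (r = 0.88 to 0.91), with *Fabp1* at rank 7. For *Dbi* they were *Ech1*, *Scp2*, *Decr1*, *Mettl7b* and *Acadvl* (r = 0.88 to 0.93), of which *Ech1*, *Decr1* and *Acadvl* are enzymes of fatty acid oxidation. For *Acbd5* they included *Zfand2a* and *Grpel2* (r = 0.78 for each). These likenesses hold the difference between genotypes, which all such genes share.

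After each gene was centred on its genotype means, *Fabp1* and *Fabp2* no longer resembled each other (r = 0.12). The genes most like *Fabp1* were then *Rras2* (r = 0.88), *Rsrc1* (r = 0.83), *Cyp2c65*, *Slc28a1* and *Cyp2c66*, and those most like *Fabp2* included *Hes2* and *Cystm1* (r = 0.89 and 0.88), *Espn* and *Cmpk1*. *Dbi* was most like *Cyb5a*, *Micos10*, *Ech1*, *Ndufa5* and *Eci3* (r = 0.86 to 0.87), and the genes most like *Acbd5* included *Napg* (r = 0.78) and *Grpel2* (r = 0.76). *Fabp4* was most like *Lep*, the fat cell hormone leptin (r = 0.99), followed by *Thrsp*, *Cd36*, *Lpl* and *Ccdc80* (r = 0.98 for each). *Fabp5* was most like *Zfp385a* and *Pdlim4* (r = 0.97 for each). *Fabp4* and *Fabp5*, which lie near each other on chromosome 3, had r = 0.81 with each other. Many genes were more alike, since *Fabp5* was at rank 361 for *Fabp4* and *Fabp4* at rank 608 for *Fabp5* among 12644 genes.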

How the data were processed

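Whole-thickness ileum of 18 mice (6 control, 6 IEC-*Ppara* heterozygous, 6 IEC-*Ppara* homozygous, by the labels) was analysed with 1 library per mouse. The authors aligned paired reads to the Ensembl release 101 assembly (GRCm38) with STAR and counted uniquely aligned, unambiguous reads per gene with featureCounts. The deposited counts are not normalized, the deposited CPM divide them by library totals, the deposited FPKM divide also by gene length, and the deposited log2 values are moderated log2 CPM. Reads shared by near-identical genes are not counted. Repeated rows of the CPM and log2 tables (287) were dropped.

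Protein-coding genes above 3 CPM in 4 or more libraries (12645 of 55487 genes) were compared with edgeR 4.0.16 (TMM, glmQLFit and glmQLFTest, all 18 libraries, adjusted p under 0.05 by Benjamini-Hochberg) in R 4.3.3. On simulated counts for homozygous against control with 200 changed genes among 12645, 170 were found with 4 false calls. Log2 ratios were tested by exact permutation (two-sided), and scores were mean log2 CPM (prior count 2). Correlations over 10 or more libraries used 100000 permutations. DESeq2 1.42.0 and limma 3.58.1 were alternatives. P-values measure the spread between mice. All members are named, with other listed genes that were called or were among the 4 with the highest mean CPM of a list, and some genes that this rule or the likeness to a member would name are not reported here. The members and lists were chosen with earlier results of these data known. Adipocyte and B cell scores as covariates, and the fit without libraries holding *Adipoq*, were added after seeing the data.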

Additional observations from a re-analysis of the deposited data

Results flagged for a closer look

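In 24 groups of 6 libraries (7 members and the Fabp1:Fabp2 ratio in 3 genotypes), 4 libraries stood apart from the rest of their group by the gap to the nearest library. Chance alone sets a library apart in about 1 in 20 groups if the values are normally distributed. The gaps were taken without logs, where *Fabp4* and *Fabp7* have a few high values, so this rate may not hold for them. *Fabp4* was 200.9 CPM in control replicate 4, the control library with the most *Adipoq* (56.6 CPM). *Fabp7* was 1.09 CPM in homozygous replicate 3, which also had the highest enteric glia, macrophage and smooth muscle scores of all 18 libraries and the second highest adipocyte score. *Dbi* was 249.0 CPM in heterozygous replicate 1, the lowest of its genotype, and the same library had the lowest *Fabp1*, *Fabp2* and *Ppara* of the heterozygous mice. *Acbd5* was 57.0 CPM in homozygous replicate 4, below the other 5 homozygous libraries. What set these libraries apart was not tested.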

How the results depend on the processing

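*Fabp1* was called higher in homozygous and heterozygous mice under all 13 alternatives and in all 18 fits that left out 1 library, with log2 fold changes of 3.83 to 3.94 and 3.12 to 3.45 under the alternatives. *Fabp2* was called in homozygous mice under 12 of 13 (0.97, adjusted p = 0.630 by edgeR in only the 8 libraries with *Adipoq* under 1 CPM, where 1 homozygous library is left). In heterozygous mice the number of members called was 2 with library size only, with limma and when the adipocyte score was a covariate, 3 with DESeq2, and 1 to 2 without 1 library. In homozygous mice it was 3 with DESeq2 and 1 in the 8 libraries with *Adipoq* under 1 CPM.

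The number of all genes called was 52, 37 and 1 for homozygous against control, heterozygous against control and homozygous against heterozygous. It was 136, 82 and 9 with DESeq2, and 4, 4 and 0 in the 8 libraries with *Adipoq* under 1 CPM. For heterozygous against control it was 23 with only the 12 libraries compared. For homozygous against heterozygous it was 0 with DESeq2 size factors in edgeR, without a filter, with a minimum of 10 counts per library, with all biotypes, with only the 12 libraries, and with sex, the adipocyte score or the B cell score as a covariate. Without 1 library it was 43 to 65, 25 to 53 and 0 to 2. The cause of these shifts was not tested.

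The labels do not pair the mice by replicate number. Same-numbered libraries correlated between -0.61 and 0.64 after centring. These values cannot decide whether such mice share a litter, since fat, muscle and B cell markers also varied between libraries. With the replicate block, 49, 22 and 0 genes were called and the calls of members were the same. Relative to the epithelial genes, 2 members differed between homozygous and heterozygous mice at an unadjusted exact permutation p under 0.05, against 0 in males only and 1 with the replicate block. Without 1 library the number was 3 to 4 for homozygous against control, 2 to 3 for heterozygous against control and 2 to 2 between them. The Fabp1:Fabp2 ratio kept p under 0.05 against control in every alternative, and without 1 library its log2 difference was 2.80 to 3.12 in homozygous mice, 2.597 to 2.92 in heterozygous mice and 0.11 to 0.34 between them.

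Signs turned only where no call was made. *Fabp4* in homozygous mice was -0.092 with the adipocyte score, and in heterozygous mice -0.0081 with limma, -0.18 with sex as a covariate and -0.091 with the replicate block. Its homozygous to heterozygous difference was -0.39 with the adipocyte score. *Fabp5* in homozygous mice was -0.047 with sex and -0.18 with the adipocyte score, and -0.065 between the IEC-*Ppara* genotypes with that score. *Fabp4* relative to the epithelial genes in heterozygous mice was 0.31 as a linear ratio and 0.48 in males only. Without 1 library the log2 fold change ran from -0.24 to 0.32 for *Fabp5* in homozygous and -0.46 to 0.016 in heterozygous mice, from 0.035 to 1.27 for *Fabp4* in homozygous and -0.20 to 1.22 in heterozygous mice, and between the IEC-*Ppara* genotypes from -0.44 to 0.73 for *Fabp4*, -0.054 to 0.59 for *Fabp5* and -0.039 to 0.080 for *Dbi*. Relative to the epithelial genes it ran from -0.55 to 0.47 for *Fabp4* in heterozygous mice, from -0.15 to 0.37 and -0.45 to 0.017 for *Fabp5* in homozygous and heterozygous mice, and from -0.014 to 0.088 for *Acbd5* between the IEC-*Ppara* genotypes. Depth limits only *Fabp7*.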

Other observations

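B cell transcripts were high in 4 libraries. The mean log2 CPM of 10 B cell markers was 5.66 in control replicate 2, 5.33 in control replicate 3, 4.84 in heterozygous replicate 2 and 3.05 in homozygous replicate 1, and at most 0.83 in the other 14 libraries. No fold change is given, since these 4 libraries stand apart and fall 2, 1 and 1 over the genotypes. None of the 10 was called by edgeR or DESeq2 against control, and all 10 had an unadjusted p under 0.05 in homozygous and 0 in heterozygous mice by edgeR. With the B cell score as a covariate, *Fabp1* was higher by 3.94 (adjusted p = 6.21e-08 by edgeR) and *Fabp2* by 0.89 (adjusted p = 0.00522) on the log2 scale in homozygous mice.

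Smooth muscle and regional markers were examined in the same way. The 10 smooth muscle markers had a median log2 fold change of 0.57 in homozygous and -0.19 in heterozygous mice, and their mean log2 CPM was lowest in control replicate 6 (4.83) and heterozygous replicate 3 (5.14), against 7.02 to 8.86 in the other 16 libraries. None of them was called by edgeR or DESeq2, and none had an unadjusted p under 0.05 in the comparisons with control by edgeR. Of 6 markers of the proximal intestine, where *Fabp1* is usually abundant, 3 were tested and none was called by edgeR or DESeq2. *Apoa4*, which the chylomicron list also holds, had a log2 fold change of 1.31 (SE 0.49, adjusted p = 0.482 by edgeR) in homozygous and 1.29 (SE 0.49, adjusted p = 0.732) in heterozygous mice, and was the 1 gene at an unadjusted p under 0.05 in each. *Slc40a1* and *Cybrd1* had log2 fold changes of 0.021 and 0.041 in homozygous mice. The other 3, *Lct*, *Gata4* and *Onecut2*, were too low to test, with means of at most 1.38 CPM in every genotype. Of 6 distal markers, all tested, none was called by edgeR or DESeq2, with 1 at an unadjusted p under 0.05 in homozygous and 0 in heterozygous mice by edgeR. In homozygous mice *Fgf15* had a log2 fold change of -0.99 (SE 0.51, adjusted p = 0.644 by edgeR), *Slc51a* of -0.30 (SE 0.14, adjusted p = 0.613) and *Slc51b* of -0.21 (SE 0.14, adjusted p = 0.726), and the other 3 lay between 0.026 and 0.13.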
